A study of Rattus norvegicus with 30 samples.

Results

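Hepatocytes of the liver lobule divide their work between a pericentral zone, around the central vein, and a periportal zone, around the portal tract. The genes described here are 8 markers of these zones, Glul, Cyp2e1, Oat, Rhbg and Lect2 for the pericentral zone and Gls2, Hal and Sds for the periportal zone. They were chosen by name, and their probe sets were found by the gene symbol of the platform annotation. Of the 8 genes, 7 were measured, by 10 probe sets, out of 14217 genes and 31042 probe sets in the whole table. These were 4 of the 5 pericentral genes and 3 of the 3 periportal genes. The platform table ties no probe set to Rhbg, so its expression was not analysed here.

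The livers came from Wistar/Han rats that received by gavage either corn oil alone, the control, or 50 mg/kg of DE-71, a flame retardant product made of polybrominated diphenyl ethers (PBDE). Dams were dosed from gestation day 6, at a volume of 5 ml/kg and on 7 days per week, and pups were also dosed directly up to postnatal day 21. After weaning the dosing ran on 5 days per week. The 6 groups of 5 livers were PBDE and control male pups on postnatal day 22, PBDE and control female pups on postnatal day 22, and PBDE and control adult males at week 13. No dam gave more than 1 pup, and within a dose group no dam gave more than 1 adult. One section of whole liver was extracted per animal, so both zones and all liver cell types lie in each sample. In such bulk samples, fewer cells of a type and less RNA per cell cannot be told apart, and no position within the lobule was measured.

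Oxygen and nutrients reach the periportal hepatocytes first, and these cells carry out most amino acid breakdown, urea synthesis and gluconeogenesis. Pericentral hepatocytes hold most of the drug-metabolizing cytochrome P450 enzymes, and the innermost ring of them takes up leftover ammonia and fixes it as glutamine. Pericentral genes depend on Wnt ligands and R-spondins from the endothelium of the central vein, which act through beta-catenin and the TCF/LEF factors that bind DNA with it.

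Promoters are shown because the pericentral program runs through TCF/LEF sites. RefSeq promoter windows on the rat build GRCr8, each 250 bases before to 50 bases after a transcript start, were matched for 6 of the 8 members. Hal and Sds, both periportal, had no window, so Gls2 was the only periportal gene searched. They were searched on both strands for the letters CTTTGAT and CTTTGTT, forms of the TCF/LEF core motif, and matches are in capitals. Glul start 1, on the plus strand at chr13:68519250-68519549, held CTTTGAT on the opposite strand, beginning at -230 from the start. Lect2, on the plus strand at chr17:8049784-8050083, held the same letters on the opposite strand at -68. Cyp2e1, on the plus strand at chr1:205269717-205270016, held CTTTGTT at -41. Gls2 start 1, on the plus strand at chr7:1201629-1201928, is printed as a periportal window and held neither.
Glul start 1: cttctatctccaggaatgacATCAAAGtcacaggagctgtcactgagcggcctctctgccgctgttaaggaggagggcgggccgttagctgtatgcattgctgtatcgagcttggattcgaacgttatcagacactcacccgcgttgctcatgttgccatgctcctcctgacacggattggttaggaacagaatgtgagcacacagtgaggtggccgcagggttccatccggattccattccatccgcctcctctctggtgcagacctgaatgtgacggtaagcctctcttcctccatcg
Lect2: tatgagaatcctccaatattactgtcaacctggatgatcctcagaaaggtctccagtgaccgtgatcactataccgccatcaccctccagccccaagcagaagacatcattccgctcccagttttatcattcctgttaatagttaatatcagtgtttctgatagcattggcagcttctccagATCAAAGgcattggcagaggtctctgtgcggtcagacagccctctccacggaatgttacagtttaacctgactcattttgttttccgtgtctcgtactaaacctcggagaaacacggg
Cyp2e1: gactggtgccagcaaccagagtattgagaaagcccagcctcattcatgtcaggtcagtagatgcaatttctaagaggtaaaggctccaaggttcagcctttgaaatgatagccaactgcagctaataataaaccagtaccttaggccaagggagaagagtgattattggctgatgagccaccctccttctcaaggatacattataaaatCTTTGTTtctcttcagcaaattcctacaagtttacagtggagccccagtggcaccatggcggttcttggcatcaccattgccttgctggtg
Gls2 start 1: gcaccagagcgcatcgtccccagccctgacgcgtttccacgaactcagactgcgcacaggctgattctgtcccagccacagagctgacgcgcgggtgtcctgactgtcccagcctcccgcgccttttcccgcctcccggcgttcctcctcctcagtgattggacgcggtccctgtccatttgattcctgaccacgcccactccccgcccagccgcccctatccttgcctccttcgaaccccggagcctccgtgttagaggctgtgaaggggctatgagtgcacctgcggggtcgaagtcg
The second start of Glul, on the plus strand at chr13:68575816-68576115, the second start of Gls2, and the windows of Oat and Rhbg also held neither set of letters. Which start of Glul or Gls2 these livers used was not measured. Of 33469 promoter windows in the table, 3.63% held CTTTGAT, 5.98% held CTTTGTT and 9.39% held either. The windows printed are those with a match and Gls2 start 1, so they give no contrast between the zones. A match describes the letters of a window and is not evidence of binding.

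All values below are log2 expression levels or log2 differences between group means (PBDE minus control, male minus female, or week 13 minus postnatal day 22). They come from the authors' RMA values, in which 1 unit is a doubling. One limma model with a mean for each group was fitted to all 30 arrays and 31042 probe sets, with Benjamini-Hochberg adjustment over all of them. A gene passed at an adjusted p of 0.01 or less in pups and of 0.05 or less in adults and across ages. Where counts at an unadjusted p under 0.05 in limma are given, the share of all genes at that level was not computed. Such counts therefore have no background to be judged against. A gene was read from its probe set of highest mean over all arrays. Array medians lay between 5.72 and 5.77. Array names divide the arrays into 2 sets: male PBDE, male control and female control pups in the first, and female PBDE pups and both adult groups in the second. PBDE and control livers share a set in male pups and in adults. For dose in female pups, sex in PBDE pups, sex by dose in pups and both age comparisons, group and array set cannot be told apart.

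All 7 measured genes lay above the median of all values, 5.74, on every array. Averaged over all arrays, Cyp2e1 stood highest at 14.2, above 99.8% of genes, and Sds lowest at 7.90, above 62.3% of genes. Probe sets differ in how strongly they bind, so this order is not an order of RNA amounts. The highest single value in the table was 15.5, and the highest of Cyp2e1 was 14.6, in a control female pup. Whether Cyp2e1 lay near the upper limit of the arrays was not tested.

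With DE-71, markers of both zones fell, and no measured member passed as higher in any dose comparison. In male pups 3 of 7 genes fell, Glul, Gls2 and Hal, where 3.26% of all genes passed as lower, 4.23% as higher and 7.48% in either direction. In female pups the same 3 genes fell, against 2.18% of all genes lower, 3.95% higher and 6.13% in either direction. In adult males 2 of 7 fell, Glul and Oat, both pericentral, against 2.04% of all genes lower, 1.86% higher and 3.9% in either direction. The threshold was 0.01 in pups and 0.05 in adults, so these counts do not compare the ages. The PBDE and control groups did not overlap for 4 of 7 genes in male pups, where 11.9% of all genes did not overlap. This held for 3 of 7 in female pups, against 10.9%, and for 1 of 7 in adults, against 4.59%. The median change over the 7 genes was -0.77 in male pups, -0.90 in female pups and -0.50 in adult males, beside medians over all genes of 0.02, 0.02 and 0.01.

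**Figure D1:**
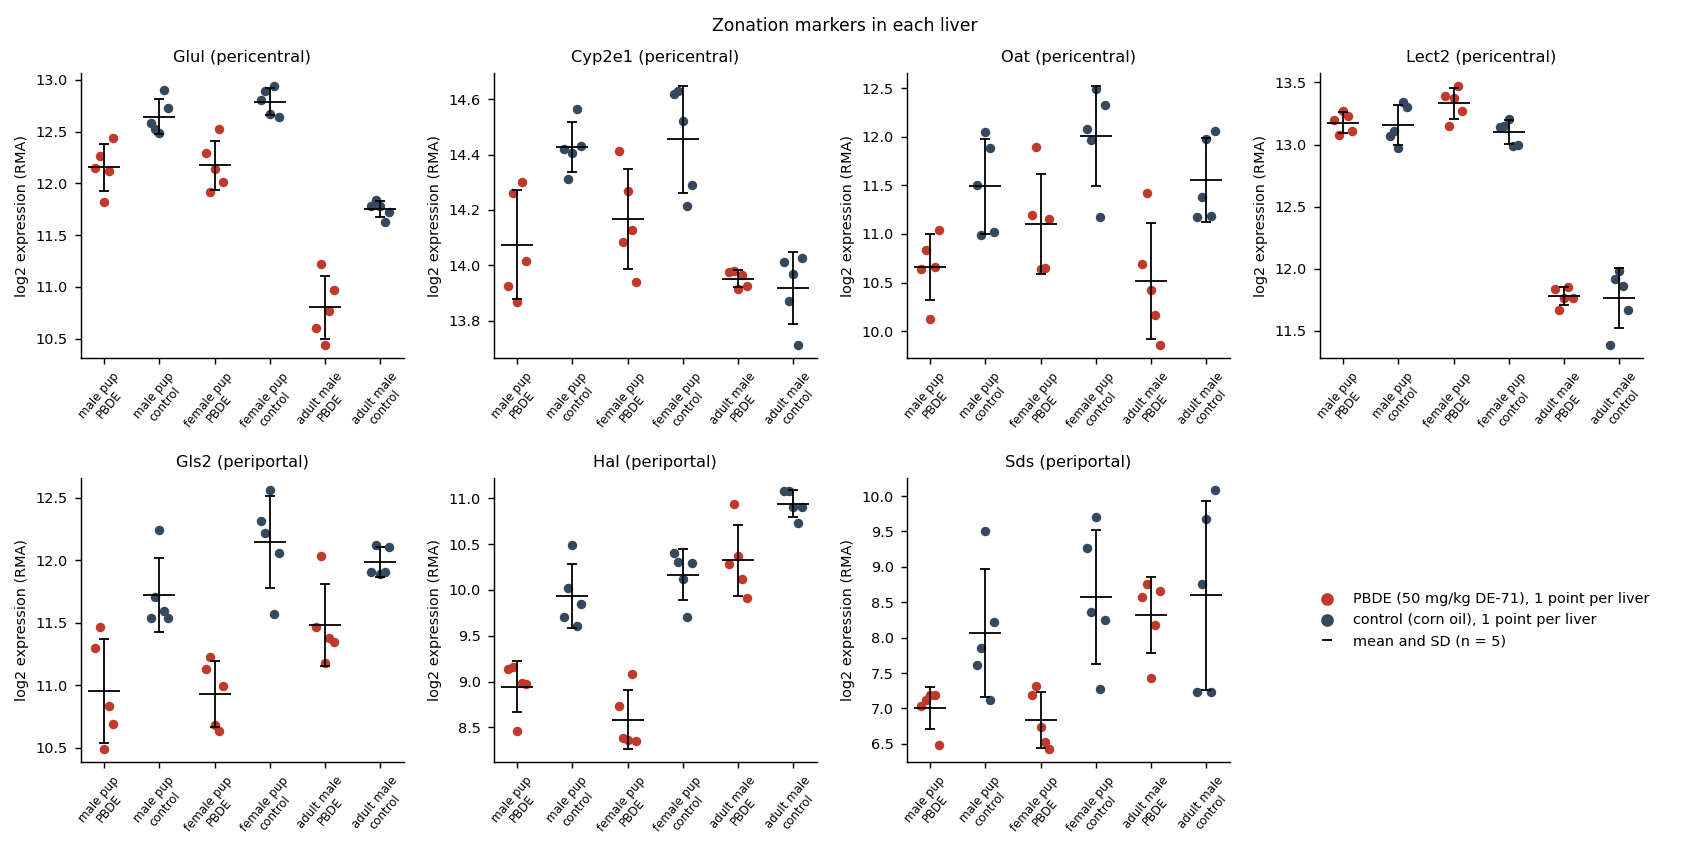
Log2 expression (RMA) of the 7 measured zonation markers in each of the 30 livers, with 1 point per liver and the mean and SD of each group of 5. PBDE points lie below all control points for Glul, Gls2 and Hal in both sexes of pups and for Glul in adults, and each panel has its own vertical scale.

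Glul encodes glutamine synthetase, which fixes ammonia as glutamine in the innermost pericentral hepatocytes. In male pups its levels were 12.15, 12.26, 11.82, 12.12 and 12.44 with PBDE, against 12.58, 12.53, 12.49, 12.90 and 12.73 in controls. In female pups they were 12.29, 11.92, 12.14, 12.52 and 12.01 with PBDE, against 12.80, 12.89, 12.67, 12.94 and 12.64 in controls. In adult males they were 10.61, 11.22, 10.44, 10.77 and 10.97 with PBDE, against 11.79, 11.84, 11.78, 11.63 and 11.73 in controls. In each of these pairs every PBDE liver lay below every control liver, and the gap was widest in adults.

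Glul fell by 0.95 ± 0.12 (SE) in adult males, to 0.518 of the control level (adjusted p = 2.07e-05). The fall was 0.61 ± 0.12 in female pups (adjusted p = 0.00157) and 0.49 ± 0.12 in male pups (adjusted p = 0.00963). The adult and female pup calls held under all 18 alternatives, while the male pup call was near its threshold and was lost under 14 of 18 alternatives, with adjusted p between 0.0052 and 0.0421. Leaving out any 1 of the 10 livers except male PBDE replicate 5 ended that call, at changes of -0.41 to -0.53.

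Glul has 3 probe sets, and in adults all 3 passed as lower with no overlap, the next brightest at -0.93 and the dimmest at -1.44. In male pups these gave -0.37 (adjusted p = 0.0421) and -0.50 (adjusted p = 0.344), neither past the threshold. In female pups the next brightest passed at -0.50 (adjusted p = 0.00639), and the dimmest did not at -1.04 (adjusted p = 0.0279).

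Oat encodes ornithine aminotransferase, which turns ornithine toward glutamate in the same cells. In adult males its levels were 10.69, 11.43, 10.42, 10.17 and 9.86 with PBDE, against 11.18, 11.38, 11.98, 11.18 and 12.06 in controls. Only PBDE replicate 2 reached into the control range. Oat fell by 1.05 ± 0.28 in adult males, to 0.484 of control (adjusted p = 0.0387). That call was lost under 10 of 18 alternatives, with adjusted p between 0.0078 and 0.127. Among them were leaving out PBDE replicate 3, 4 or 5 or control replicate 2, 3 or 5, at changes of -0.88 to -1.09.

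In pups the differences in Oat did not pass at the pup threshold of 0.01. That in female pups would have passed at the adult threshold of 0.05, and that in male pups would not. Male pup levels were 10.64, 10.83, 10.12, 10.66 and 11.04 with PBDE, against 11.50, 10.99, 12.05, 11.88 and 11.02 in controls, a difference of -0.83 ± 0.28 (adjusted p = 0.0583). Female pup levels were 11.19, 11.90, 10.64, 10.65 and 11.15 with PBDE, against 12.08, 11.97, 12.50, 11.17 and 12.32 in controls, a difference of -0.90 ± 0.28 (adjusted p = 0.0443). Both pairs overlapped, and the spread within groups was wide, with SDs of 0.34 to 0.60 over the 6 groups.

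Cyp2e1 encodes a cytochrome P450 that oxidizes ethanol and small solvents. In male pups its levels were 13.92, 14.26, 13.87, 14.30 and 14.01 with PBDE, against 14.42, 14.31, 14.41, 14.57 and 14.43 in controls. The groups only just failed to overlap, and the difference of -0.35 ± 0.09 did not pass (adjusted p = 0.0138). It passed under 4 alternatives, among them leaving out male PBDE replicate 2 (-0.40, adjusted p = 0.00896) and leaving out replicate 4 instead (-0.41, adjusted p = 0.00669). Adjusted p over all alternatives lay between 0.00669 and 0.0523.

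In female pups Cyp2e1 was at 14.41, 14.08, 14.27, 14.13 and 13.94 with PBDE, against 14.62, 14.63, 14.52, 14.21 and 14.29 in controls (-0.29 ± 0.09, adjusted p = 0.0572). In adult males it was at 13.98, 13.98, 13.91, 13.97 and 13.92 with PBDE, against 14.01, 13.87, 13.97, 13.71 and 14.03 in controls. The adult PBDE levels lay within the control range, and the controls spread wider (SD 0.03 with PBDE and 0.13 in controls). The difference was 0.03, with a 95% interval of -0.16 to 0.23. An adult fall as large as that of Glul lies outside this interval.

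Lect2 encodes a secreted chemotactic protein of hepatocytes and is a beta-catenin target in mouse liver. In male pups its levels were 13.20, 13.07, 13.27, 13.23 and 13.11 with PBDE, against 13.07, 13.11, 12.97, 13.34 and 13.31 in controls. In adult males they were 11.84, 11.67, 11.77, 11.86 and 11.76 with PBDE, against 11.39, 11.92, 11.98, 11.86 and 11.67 in controls. The groups overlapped at both ages, with differences of 0.02 (95% interval -0.17 to 0.20) in male pups and 0.01 (-0.17 to 0.20) in adults.

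Female pups had Lect2 at 13.39, 13.15, 13.38, 13.47 and 13.27 with PBDE, against 13.14, 13.15, 13.21, 12.99 and 13.00 in controls (0.23 ± 0.09, adjusted p = 0.118). Its second probe set gave -0.21, -0.03 and -0.35 in male pups, female pups and adult males, the opposite sign, and none passed.

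**Figure D2:**
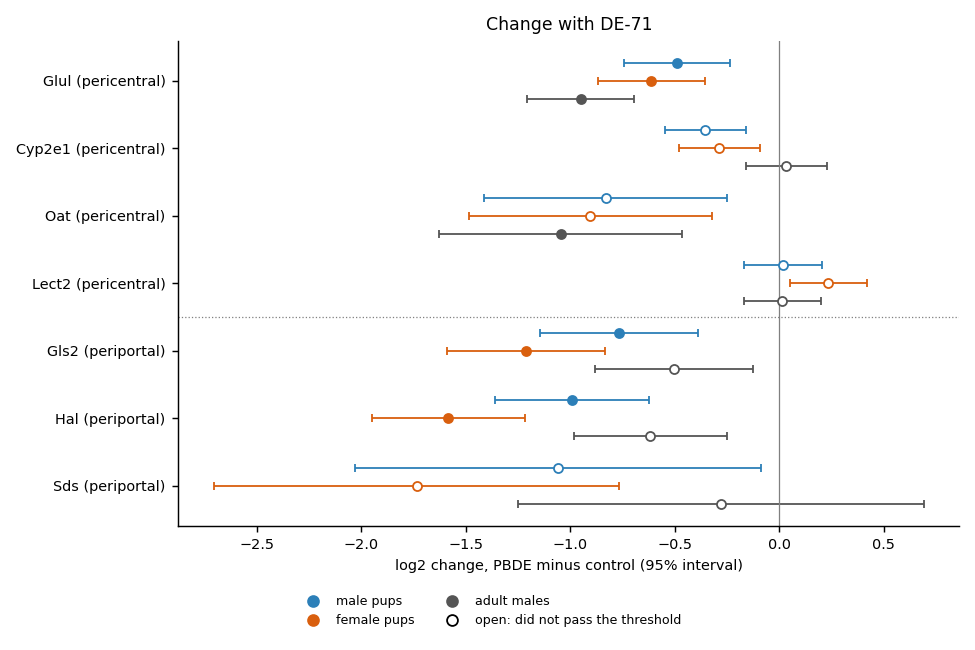
Log2 change with DE-71 (PBDE minus control) of each measured marker in male pups, female pups and adult males, with 95% intervals and filled points where the threshold was passed. Glul is filled in all 3 comparisons, and Gls2 and Hal in both sexes of pups. Oat is filled in adults only, and Cyp2e1, Lect2 and Sds in none. The threshold was an adjusted p of 0.01 in pups and 0.05 in adults, so filled points do not compare the ages.

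Gls2 encodes the liver-type glutaminase, which releases ammonia from glutamine for urea synthesis in periportal cells. Male pup levels were 11.30, 11.47, 10.49, 10.83 and 10.69 with PBDE, against 11.54, 11.70, 12.24, 11.59 and 11.54 in controls. Female pup levels were 11.13, 11.22, 10.68, 10.63 and 11.00 with PBDE, against 12.31, 12.22, 12.56, 11.57 and 12.06 in controls. Every PBDE pup lay below every control pup of its sex.

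Gls2 fell by 1.21 ± 0.18 in female pups, to 0.432 of control (adjusted p = 5.13e-05), and by 0.77 ± 0.18 in male pups, to 0.587 of control (adjusted p = 0.00594). The female call held under every alternative run, though Gls2 has 1 probe set and the probe set alternative could not differ. The male call was lost under 8 of 18, with adjusted p between 0.00196 and 0.0274, among them leaving out PBDE replicate 3, 4 or 5 or control replicate 2 or 3, at changes of -0.64 to -0.77. In adult males Gls2 was at 11.47, 12.04, 11.18, 11.38 and 11.35 with PBDE, against 11.90, 12.13, 11.89, 11.90 and 12.10 in controls. PBDE replicate 2 was the only one of its group within the control range, and the difference of -0.50 ± 0.18 did not pass (adjusted p = 0.142).

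Hal encodes histidase, the first enzyme of histidine breakdown. Male pup levels were 9.14, 9.16, 8.47, 8.98 and 8.97 with PBDE, against 9.70, 10.02, 10.50, 9.60 and 9.85 in controls. Female pup levels were 8.74, 8.38, 8.36, 9.08 and 8.35 with PBDE, against 10.41, 10.31, 10.12, 9.70 and 10.29 in controls. The gap between the lowest control and the highest PBDE liver was wider than for any other member in both sexes.

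Hal fell by 1.58 ± 0.18 in female pups, to 0.334 of control (adjusted p = 6.93e-07), and by 0.99 ± 0.18 in male pups, to 0.503 of control (adjusted p = 3.91e-04). Both calls held under every alternative run, though Hal has 1 probe set and the probe set alternative could not differ. In adult males Hal was at 10.28, 10.94, 10.37, 10.12 and 9.91 with PBDE, against 11.08, 11.08, 10.90, 10.73 and 10.90 in controls, a difference of -0.62 ± 0.18 just short of the threshold (adjusted p = 0.0559).

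Adult PBDE replicate 2 lay above the other 4 PBDE livers in Glul, Oat, Gls2, Hal and Sds. Without it, Hal (-0.77, adjusted p = 0.0099) and Gls2 (-0.64, adjusted p = 0.0466) passed as lower in adults. Over all alternatives the adult adjusted p ran from 0.0099 to 0.168 for Hal and from 0.0466 to 0.267 for Gls2.

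Sds encodes serine dehydratase, which makes pyruvate from serine and responds to fasting and glucagon. In female pups its levels were 7.19, 7.31, 6.73, 6.52 and 6.42 with PBDE, against 9.26, 8.36, 9.71, 7.28 and 8.25 in controls. Only control replicate 4 lay within the PBDE range, and the difference of -1.74 ± 0.47 did not pass (adjusted p = 0.0185). Without that control it did, at -2.06 (adjusted p = 0.00649), and over all alternatives adjusted p ran from 0.00649 to 0.0902.

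In male pups Sds was at 7.04, 7.12, 7.19, 7.19 and 6.49 with PBDE, against 7.61, 7.85, 9.51, 7.13 and 8.22 in controls (-1.06 ± 0.47, adjusted p = 0.168). In adult males it was at 8.57, 8.76, 7.44, 8.17 and 8.66 with PBDE, against 7.24, 8.76, 9.68, 7.23 and 10.08 in controls (-0.28 ± 0.47, adjusted p = 0.831). Control livers varied widely, with SDs of 0.90 in male pups, 0.95 in female pups and 1.33 in adults, and the 95% interval of the adult difference ran from -1.25 to 0.69.

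Differences between the sexes and between the dose responses were tested directly. No member passed for sex in PBDE pups, where 0.0563% of all genes passed, and 0 of 7 had an unadjusted p under 0.05. None passed for sex in control pups, against 0.0422% of all genes, and 1 of 7, Gls2, had an unadjusted p under 0.05. For sex by dose, 0% of all genes passed in limma, and 1 member had an unadjusted p under 0.05, which was Hal at 0.59 ± 0.25 (adjusted p = 0.954). The smaller fall of Hal in male pups is thus not shown to differ between the sexes, and female PBDE pups lie in the other array set.

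For age by dose, 2.48% of all genes passed and 0 of 7 members did, while 2 had an unadjusted p under 0.05. The change in Glul was 0.46 ± 0.18 lower in adult males than in male pups (adjusted p = 0.204), and that in Cyp2e1 was 0.39 ± 0.13 higher (adjusted p = 0.145). For Gls2 (0.26, 95% interval -0.27 to 0.80), Hal (0.37, -0.14 to 0.89) and Oat (-0.22, -1.04 to 0.61) the intervals included 0. Passing in one age and not in the other therefore does not show that these genes responded differently. The threshold also differed, at 0.01 in pups and 0.05 in adults. At the adult threshold Oat (adjusted p = 0.0443) and Sds (0.0185) in female pups and Cyp2e1 in male pups (0.0138) would have passed. Oat (0.0583) and Sds (0.168) in male pups, Cyp2e1 in female pups (0.0572) and Lect2 in both sexes would not. Oat in adults (adjusted p = 0.0387) would not have passed at the pup threshold.

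At week 13, against postnatal day 22, pericentral Glul and Lect2 were lower and periportal Hal higher in males. These comparisons use the same livers as above, the series design does not name them, and age cannot be told apart from array set. In PBDE males Glul and Lect2 fell and Hal rose, 3 of 7 genes, against 18.8% of all genes in either direction, 5.2% higher and 13.6% lower. In control males Glul, Cyp2e1 and Lect2 fell and Hal rose, 4 of 7, against 29.5% in either direction, 10.9% higher and 18.6% lower. Beside the members, 15 other periportal genes were measured. In control males 4 of them were higher and 4 lower (median -0.08), and in PBDE males 2 higher and 0 lower (0.13). Of 15 other pericentral genes, 2 were higher and 9 lower in control males (-0.79), and 1 higher and 6 lower in PBDE males (-0.315). Medians over all genes were -0.02 in control and -0.03 in PBDE males.

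Lect2 fell by 1.40 ± 0.09 in PBDE males (adjusted p = 2.05e-12) and by 1.40 ± 0.09 in control males (adjusted p = 1.38e-12), and its second probe set also passed, at -1.14 and -0.999. Glul fell by 1.36 ± 0.12 in PBDE males (adjusted p = 4.00e-09) and by 0.89 ± 0.12 in control males (adjusted p = 3.32e-06). Its next brightest probe set passed in both, at -1.62 in PBDE males and -1.06 in control males, and the dimmest gave -0.93 (adjusted p = 0.0379) and 0.01 (adjusted p = 0.981). Hal was 1.38 ± 0.18 higher in PBDE males (adjusted p = 2.11e-06) and 1.01 ± 0.18 higher in control males (adjusted p = 1.02e-04).

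Cyp2e1 fell by 0.51 ± 0.09 in control males (adjusted p = 1.69e-04) and was -0.12 ± 0.09 in PBDE males (adjusted p = 0.448). Oat differed by -0.15 in PBDE males and 0.07 in control males, neither past the threshold. Gls2 was at 0.53 (adjusted p = 0.054) and Sds at 1.32 (adjusted p = 0.0622) in PBDE males, and at 0.26 and 0.54 in control males. With a replicate block Gls2 (adjusted p = 0.0324) and Sds (adjusted p = 0.0477) passed in PBDE males. Gls2 also passed there without pup PBDE replicate 1 (0.61) or 2 (0.66) or adult PBDE replicate 3 (0.60), and Sds without adult PBDE replicate 3 (1.54).

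**Figure D3:**
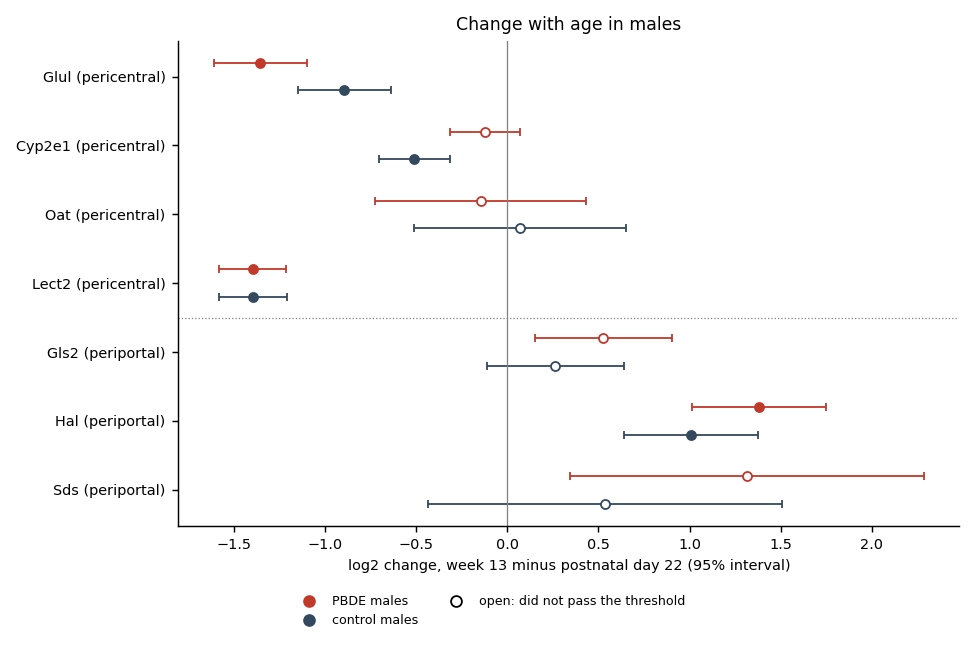
Log2 change with age (week 13 minus postnatal day 22) of each measured marker in PBDE and control males, with 95% intervals and filled points where the threshold was passed. Glul and Lect2 lie below 0 and Hal above 0 in both groups, and Cyp2e1 is filled in controls only.

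Other genes of the 2 zones were read from lists of 18 names each. Of 15 measured periportal genes, 6 fell in male pups, 7 in female pups and 0 in adult males, and none rose, where 3.26%, 2.18% and 2.04% of all genes fell. Their median changes were -0.29, -0.46 and -0.16, beside 0.02, 0.02 and 0.01 over all genes. In adults, where limma passed 0 of them, 5 of 15 had an unadjusted p under 0.05. The largest falls in male pups were those of Agxt, which detoxifies glyoxylate (-1.06 ± 0.14), the lipid droplet protein gene Hsd17b13 (-0.75 ± 0.09), the gluconeogenic gene Fbp1 (-0.52 ± 0.09) and the urea cycle gene Asl (-0.48 ± 0.10). In female pups they were Hsd17b6, a steroid-metabolizing enzyme (-2.32 ± 0.34), Agxt (-1.19 ± 0.14), the urea cycle gene Ass1 (-1.01 ± 0.17) and Fbp1 (-0.68 ± 0.09).

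The 15 measured genes of the pericentral list moved both ways, with 2 higher and 1 lower in male pups, 2 higher and 4 lower in female pups, and 3 higher and 1 lower in adults. The shares of all genes passing in either direction were 7.48%, 6.13% and 3.9%. The list's medians were -0.13, -0.28 and 0.08, beside 0.02, 0.02 and 0.01 over all genes. Por, the reductase that passes electrons to P450 enzymes, rose by 1.13 ± 0.14, 1.31 ± 0.14 and 1.15 ± 0.14 in male pups, female pups and adult males, although its second probe set (0.45, 0.40 and 0.43) did not pass. Cyp1a2, a target of the aryl hydrocarbon receptor, rose by 1.16 ± 0.18, 1.09 ± 0.18 and 0.94 ± 0.18. Tbx3, a transcription factor gene known as a beta-catenin target, rose by 1.65 ± 0.28 in adults, and its second probe set also passed at 0.59 (adjusted p = 0.00785).

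Falls in this list were those of the glutamine transporter gene Slc38a3 in male pups (-0.42 ± 0.10), the dicarboxylate transporter gene Slc13a3 in female pups (-1.27 ± 0.19), the Wnt-responsive receptor gene Lgr5 in female pups (-0.82 ± 0.17) and the calcium-binding protein gene Rgn in adults (-0.32 ± 0.09). Lgr5 was dim, at 4.29 in female PBDE pups and 5.10 in female control pups, below the median of all values. Rgn (-0.50, adjusted p = 5.18e-04) and Slc38a3 (-0.40, adjusted p = 0.00938) also fell in female pups, and are named beyond the naming rule to complete the count of 4. Of 18 alternatives, the call of Slc38a3 was lost under 7 in male pups and 12 in female pups, and that of Rgn under 0 in female pups and 13 in adults. Lgr5 lost its call under 1 of 17, since the filter on dim probe sets removed it.

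For age by dose, 1 of 15 pericentral, 2 of 15 periportal and 1 of 12 metabolic partner genes passed, against 2.48% of all genes. These genes are named here after their values were seen. They were Tbx3 (1.55 ± 0.39, adjusted p = 0.0336), Hsd17b13 (0.52 ± 0.12, adjusted p = 0.024), Agxt (0.74 ± 0.19, adjusted p = 0.0434) and Aldh18a1, a proline and ornithine synthesis gene (0.88 ± 0.23, adjusted p = 0.0408). These calls were near the threshold, and of 28 alternatives Tbx3 lost its call under 12, Hsd17b13 under 1, Agxt under 14 and Aldh18a1 under 15. The second probe set of Tbx3 gave 0.66 (adjusted p = 0.0508). Among the cell type markers Fcgr2b, 1 of 7 endothelial genes, passed as well (0.64 ± 0.16, adjusted p = 0.0382).

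Of 14 measured genes of the beta-catenin pathway, 1 passed with dose, the Wnt receptor gene Fzd4, which rose by 0.86 ± 0.17 in male pups, where 7.48% of all genes passed. Its second probe set gave 0.55 and did not pass (adjusted p = 0.021). None passed in female pups or adults, where 5 and 3 had an unadjusted p under 0.05 in limma, and the medians were 0.01, -0.06 and 0.01, beside 0.02, 0.02 and 0.01 over all genes. Among 12 measured metabolic partners of the members, 4 fell in male pups, 3 in female pups and 2 in adults, and none rose, against 3.26%, 2.18% and 2.04% of all genes as lower. The medians were -0.14, -0.27 and -0.13. Male pups showed falls of Aldh18a1 (-1.09 ± 0.16), the proline oxidation gene Prodh (-0.89 ± 0.15), the amino acid transporter gene Slc38a4 (-0.70 ± 0.10) and the glutamate dehydrogenase gene Glud1 (-0.48 ± 0.08). Prodh (-0.97 ± 0.15), Slc38a4 (-0.70 ± 0.10) and Glud1 (-0.42 ± 0.08) fell in female pups, and Prodh (-0.62 ± 0.15) and the serine dehydratase-like gene Sdsl (-0.40 ± 0.11) in adults. Prodh's second probe set, dim at 5.35, gave 0.06, 0.03 and -0.05 in male pups, female pups and adults. In adults the call of Sdsl was lost under 13 alternatives and that of Prodh under 8.

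**Figure D4:**
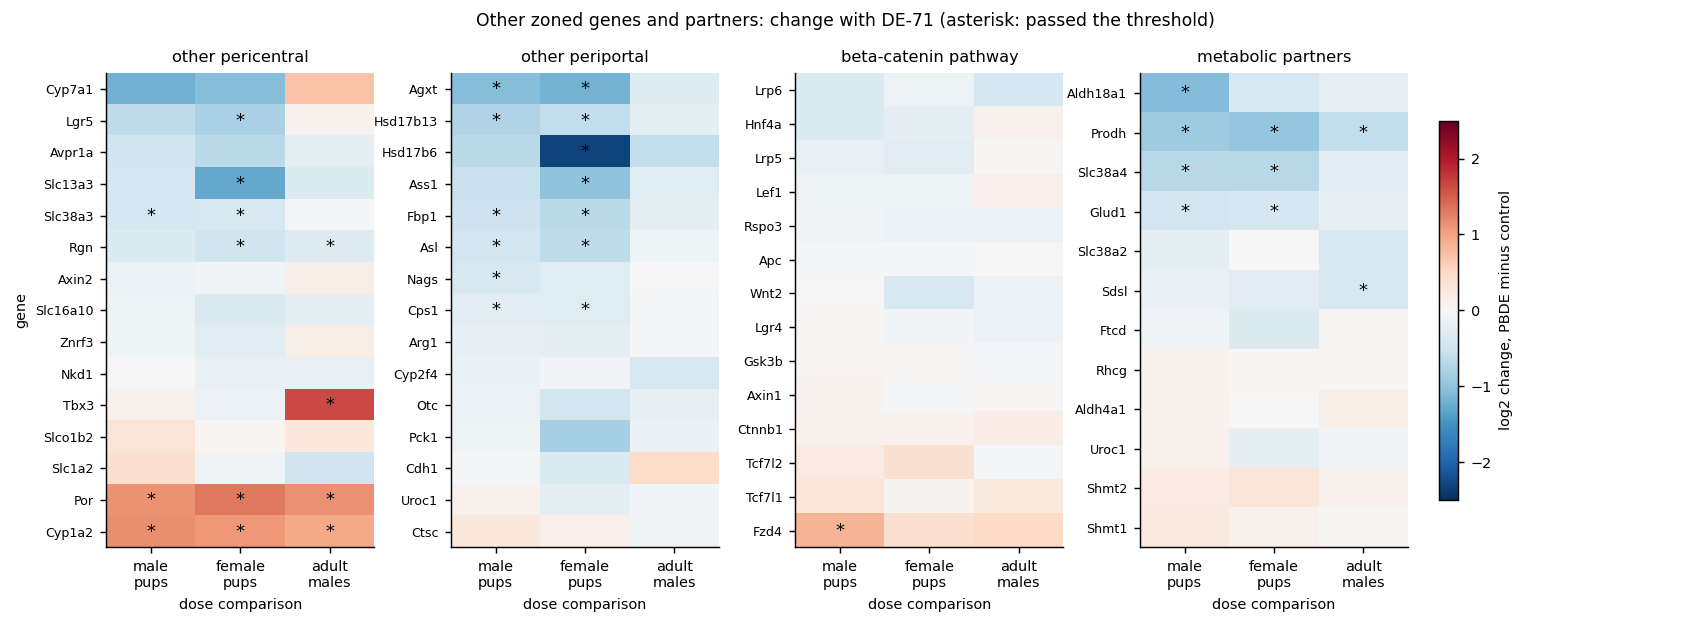
Log2 change with DE-71 (PBDE minus control, color scale) of the measured genes of 4 lists in male pups, female pups and adult males, with an asterisk where the threshold was passed. In the periportal panel 6 genes carry an asterisk in male pups, 7 in female pups and 0 in adults, all as falls, and Por and Cyp1a2 rose in all 3 comparisons.

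Markers of several liver cell types moved with dose in part, and their levels are given as sums of log2 values over each list. Of all genes, 3.26%, 2.18% and 2.04% passed as lower in male pups, female pups and adult males, and 4.23%, 3.95% and 1.86% as higher. Of 7 hepatocyte markers 0 passed in limma in any dose comparison, with 2, 4 and 1 at an unadjusted p under 0.05 in male pups, female pups and adults. Their sums were 103.0 to 103.4 with PBDE and 103.4 to 103.7 in control male pups, 102.8 to 103.2 with PBDE and 103.5 to 103.7 in control female pups, and 102.3 to 103.0 with PBDE and 103.1 to 103.4 in control adults. The PBDE sums lay below the control sums in all 3 pairs.

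Of 7 endothelial markers 3 fell in male pups (Stab2, Lyve1 and Fcgr2b), 1 in female pups (Fcgr2b) and 0 in adults. In limma 4, 5 and 1 of the 7 had an unadjusted p under 0.05 in male pups, female pups and adults. Their sums were 57.7 to 58.9 with PBDE and 60.7 to 61.4 in control male pups, 57.9 to 59.8 with PBDE and 60.5 to 61.9 in control female pups, and 57.1 to 59.2 with PBDE and 58.5 to 59.7 in control adults. The groups of pups did not overlap, the adults did, and Wnt2 was the one endothelial marker below the median of all values. Of 7 Kupffer cell markers C1qa fell in male pups, where the sums were 60.0 to 61.0 with PBDE and 62.5 to 64.0 in controls. None passed in female pups or adults, with 3, 1 and 6 at an unadjusted p under 0.05 in male pups, female pups and adults, and a median change of -0.42 in adults. The sums overlapped in female pups (60.3 to 63.2 with PBDE and 60.6 to 68.3 in controls) and in adults (57.8 to 62.4 with PBDE and 61.4 to 66.1 in controls).

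Of 5 cholangiocyte markers Epcam rose in all 3 dose comparisons, of 7 stellate cell markers Rgs5 rose in male pups and adults, and of 5 lymphocyte markers, all dim, Cd8a fell in adults. The sums of these 3 lists overlapped between PBDE and control groups in every pair. None of 4 erythroid markers passed in limma (0, 3 and 0 at an unadjusted p under 0.05), and their sums in female pups were 38.0 to 39.5 with PBDE and 35.2 to 37.2 in controls. The part of any of these cell types in the falls was not tested.

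With age, at week 13 against postnatal day 22, 13.6% of all genes passed as lower in PBDE males and 18.6% in control males. Of 7 stellate cell markers 5 passed as lower in both groups, with a list median of -1.82 in PBDE males and -1.97 in control males. Their sums were 46.5 to 49.3 in PBDE adults and 53.4 to 60.8 in PBDE male pups, and 47.3 to 48.8 in control adults and 55.5 to 61.4 in control male pups. All 4 erythroid markers passed as lower in both groups, with medians of -1.75 and -1.45. Of the 7 hepatocyte markers 2 passed as lower in each group, Apoa1 and Ahsg, and the list's median was 0.03 in PBDE males and 0.01 in control males. The part of these cell types in the age differences of the members was not tested.

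The Gapdh 3' minus 5' difference, a sign of RNA integrity, was 2.09 ± 0.65 with PBDE and 1.61 ± 0.33 in control male pups (SD, n = 5 each). It was 1.93 ± 0.30 with PBDE and 1.26 ± 0.51 in control female pups, and 1.17 ± 0.62 with PBDE and 0.62 ± 0.18 in control adults. Its mean was thus also lower in adults than in male pups of the same dose. With it as a covariate Glul (-0.51, adjusted p = 0.0105) and Gls2 (-0.75, adjusted p = 0.0121) in male pups and Oat (-1.01, adjusted p = 0.0853) in adults no longer passed, at changes close to those without it (-0.49, -0.77 and -1.05). With the covariate the age calls still stood, with Glul at -1.31, Lect2 at -1.38 and Hal at 1.27 in PBDE males and Glul at -0.85, Cyp2e1 at -0.63, Lect2 at -1.38 and Hal at 0.89 in control males.

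Ordered by mean, Glul ran downward through control female pups, control male pups, PBDE female pups, PBDE male pups, control adults and PBDE adults. Neighbours in that order overlapped except control and PBDE adults. Lect2 had its only gap between the pup groups and the adult groups, and Hal its only gap between control and PBDE male pups. No neighbouring groups of Cyp2e1, Oat, Gls2 or Sds were free of overlap.

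The genes most like each member over the 30 arrays were found by Pearson correlation, given as a description. All points share the arrays, the group differences and the normalization, so the correlation of deviations from the group means is given beside each. Gls2 was closest to Ass1 (r = 0.98, within groups 0.94) and Pik3c2g (0.91, 0.81). Sds was closest to Got1 (0.88, 0.80) and Pik3c2g (0.78, 0.58). Oat was closest to Ndufv1 (0.83, 0.72) and Sult1a1 (0.79, 0.66).

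Hal was closest to Car3 (0.94, 0.64) and Ambp (0.91, 0.45), Lect2 to Idh2 (0.97, 0.67) and Tox (0.97, 0.15), Cyp2e1 to Igfbp2 (0.88, 0.52) and Lrmda (0.85, 0.34), and Glul to Snrpb (0.91, 0.35) and Gtf2a2 (0.90, 0.33). Among the members themselves Oat, listed as pericentral, went within groups with Gls2 (0.67), Sds (0.52) and Hal (0.41). With the pericentral genes it gave 0.29 (Cyp2e1), 0.03 (Glul) and -0.16 (Lect2). With Gls2, Hal and Sds in turn, Cyp2e1 gave 0.32, 0.31 and 0.33, Glul 0.06, 0.31 and -0.09, and Lect2 -0.22, -0.19 and 0.13. Gls2 and Hal went together at 0.60 within groups.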

How the data were processed

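Whole-liver RNA of 30 rats was hybridised to Affymetrix rat expression arrays, 1 array per animal. The deposited values are log2 intensities that the authors made with RMA, per the submitters' processing notes, with the version not given in the sources used here. It covers 31099 probe sets, with 0 unused value columns. Removing 57 control probe sets left 31042. The platform table tied 20826 of these to 1 gene, 436 to several and 9780 to none.

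All 30 arrays entered 1 linear model holding the 6 group means (limma 3.58.1 in R 4.3.3, lmFit and eBayes), and Benjamini-Hochberg adjustment ran over the 31042 probe sets. Thresholds of 0.01 for pups and 0.05 otherwise follow the series design, which names every comparison except the 2 age comparisons. Array number limits the precision, and array set could not enter the model because each group lies in 1 set.

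The members, lists, tests and naming rule were chosen with earlier results of these data known. Up to 4 genes per list and dose comparison are named, those of largest absolute change past the threshold, and the 2 genes most like each member. Lists were other pericentral genes, other periportal genes, the beta-catenin pathway, metabolic partners and markers of 7 cell types. Alternatives changed the groups fitted, the spread estimate, normalization, a filter on dim probe sets, the probe set, a replicate block, a Gapdh covariate and each replicate left out. For a gene with 1 probe set, the probe set alternative repeats the main result and cannot differ.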

Additional observations from a re-analysis of the deposited data

Results flagged for a closer look

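Within each group of 5 livers, the gap between an extreme liver and its nearest neighbour was set against the group's range, with a limit of 0.71. Of 42 groups of values, 3 exceeded it, where chance passes about 1 in 20. That count is near the rate, and no pattern is read from which genes or groups were flagged. Hal in male PBDE pups was lowest in replicate 3, at 8.4651, against 8.97 for the next liver. Sds in male PBDE pups was lowest in replicate 5, at 6.4898, against 7.04 for the next. Gls2 in male control pups was highest in replicate 3, at 12.2413, against 11.70 for the next. Without that control the fall of Gls2 in male pups was 0.64 and no longer passed (adjusted p = 0.0274), and without Hal's lowest liver the fall of Hal still passed.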

How the results depend on the processing

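Over the 7 members and 9 comparisons, 1274 alternative results were computed, of which 1178 kept their direction and side of the threshold, 32 lost a call and 17 gained one. The 1178 include the probe set alternative for Cyp2e1, Oat, Gls2, Hal and Sds, which have 1 probe set each and could not differ. The other 47 of the 1274, spread over 13 results, changed direction with no call either way, and 0 calls reversed. Lect2's second probe set accounted for 4 of these directions, and Sds in adults came to 0.09 and Cyp2e1 in adults to -0.02 with a replicate left out. In male pups the count of members passing, 3, dropped to 1 with the compared groups alone, without shrinking the spread, or with the Gapdh covariate, and rose to 4 with trended robust eBayes and with the filter on dim probe sets. It ran from 1 to 3 with a replicate left out. In adult males the count of 2 dropped to 1 with the compared groups alone, with trended robust eBayes, with no shrinkage and with the covariate, rose to 3 with the filter on dim probe sets, and ran from 1 to 4 with a replicate left out. The 4 came without PBDE replicate 2. In PBDE males across ages the count of 3 became 5 with a replicate block and with the filter on dim probe sets, and ran from 3 to 5 with a replicate left out. In female pups it ran from 3 to 4. The second probe set of Prodh, dim at 5.35, showed little change and did not pass. It gave 0.056 in male pups (adjusted p = 0.791) and 0.028 in female pups (adjusted p = 0.924). The causes were not tested.

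Replicate numbers name no shared dam, and residuals of arrays with the same number correlated at 0.00417 on average against -9.06e-04 for other pairs, with 18 of 75 same-number pairs over 0.1, so the numbers were not taken as pairs. The replicate block left the counts at 3, 3 and 2 in male pups, female pups and adults. Over all probe sets, calls differed by over 1.5 times in adults with the compared groups alone (269, against 924) and without PBDE replicate 4 (597), for sex in PBDE pups with the compared groups alone (8, against 14), for age by dose (579) without pup PBDE replicate 4 (376), pup control replicate 5 (365) or adult PBDE replicate 4 (373), and with the Gapdh covariate in control males across ages (4305, against 7146) and PBDE males across ages (2875, against 4364).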
